A study of Mus musculus with 12 samples.

Results

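Hsd11b1 and 7 genes that handle or respond to glucocorticoid hormone were followed in perigonadal fat of mice with more or less of the glucose transporter Glut4 in adipose tissue. The members were named as a list, Hsd11b1, Nr3c1, Serpina6, Tsc22d3, Fkbp5, Sgk1, Mt1 and Mt2, and every probe set annotated to 1 of them alone was taken. All 8 genes were on the array, with 9 probe sets, among 8251 genes named by such probe sets. The members were chosen by the intensities of the overexpressor comparison, in which Hsd11b1 was higher, so their values there are a description, with no p. The count of members called in that comparison is printed once beside its background, and nothing is read from it.

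Hsd11b1 encodes 11beta-hydroxysteroid dehydrogenase type 1, an enzyme of the endoplasmic reticulum that turns inactive 11-dehydrocorticosterone into corticosterone inside fat and liver cells. Corticosterone, carried in blood by the globulin that Serpina6 encodes, binds the glucocorticoid receptor encoded by Nr3c1, which then enters the nucleus and switches genes on or off. Tsc22d3 (GILZ), Fkbp5 and Sgk1 are textbook targets that the receptor induces, and Mt1 and Mt2, the metallothioneins, respond both to glucocorticoids and to zinc. In fat, local regeneration of the hormone is known to affect adipocyte differentiation and lipid storage.

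The study used 1 Affymetrix array per mouse, 12 in all, from females aged 6 months and fed ad libitum, in 4 groups of 3. The overexpressors carried Glut4 as a transgene under the aP2 promoter on the FVB background, and their controls were FVB littermates. The adipose Glut4-/- knockouts were set against aP2-Cre transgenic mice, both on a C57B6/FVB/SV129 mix, so the knockout controls carried Cre. The aP2 (Fabp4) promoter is known to be active in some macrophages and endothelial cells as well as in adipocytes. Groups were taken from the sample titles, because the genotype field gives controls and mutants of a line the same value.

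Values are array intensities on a linear scale, 1 per probe set and array. The lowest value was 21.9 on the overexpressor line's arrays and 22.27 on those of the knockout line, and arrays correlated at 0.972 to 0.985 within a line but at 0.884 to 0.901 between lines. No level was therefore compared between lines, and each mutant was read only against its own control. For 4 of the 12 arrays the mean correlation was higher with the opposite group of the line than with their own. Slc2a4, the gene of Glut4, read 625 to 1110 in overexpressors and 583 to 1212 in their controls, which overlapped, and 363 to 378 in knockouts against 416 to 614 in theirs. The labels do not say whether that probe set reads the transgene or the deleted part, so it checks neither label. The fat markers Adipoq, Fabp4 and Lep were bright in every group, with Adipoq at 6251 in overexpressors, 6410 in their controls, 6581 in knockouts and 6314 in theirs (means).

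Hsd11b1 was brighter in overexpressor fat and dimmer in knockout fat than in the matched controls. The overexpressors read 1718, 2646 and 2323, against 385, 716 and 957 in their controls. Every overexpressor lay above every control, and the lowest overexpressor stood well clear of the highest control. The group means were 2229 ± 471 in overexpressors and 686 ± 287 in controls (SD, n = 3 each), a ratio of 3.25. On the scale used for fitting, log2(intensity + 36.92), the difference was 1.71 (SE 0.25, 95% interval 1.17 to 2.25). By size, 2 of 7454 tested probe sets had a larger difference in that direction, both of Elovl6, an elongase of fatty acids. In this bulk tissue, more cells that express Hsd11b1 and more of its RNA per cell cannot be told apart.

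The knockouts read 279, 293 and 270.3 for Hsd11b1, against 389, 387 and 400.2 in their controls. These groups did not overlap either, and both were narrow, at 281 ± 11.7 in knockouts and 392 ± 7.07 in controls (SD, n = 3 each). The difference of -0.43 on the log2 scale (SE 0.25, 95% interval -0.97 to 0.11) did not pass limma's test across all probe sets, with an adjusted p of 1. The fit of all 12 arrays uses 1 spread for the gene in both lines, and the overexpressor line's arrays were the more variable. Fitted on the knockout line's own 6 arrays the SE was 0.10 (95% interval -0.67 to -0.20), the unadjusted limma p 0.00282 and the adjusted p 0.649. The difference lay between -0.49 and -0.38 under the 21 alternative settings.

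Of 7454 tested probe sets, 7 (0.0939%) had all overexpressors above and all knockouts below their own controls, and Hsd11b1 was 1 of them. The overexpressor part of this pattern chose Hsd11b1, so its place among the 7 is a description and nothing is read from it. Taken singly, 2.54% of all probe sets had every overexpressor above every control, and 2.33% every knockout below every control. The others were those of Pth1r, a parathyroid hormone receptor, the transcription factor gene Lhx9, the signalling regulator gene Rgs16, Gabrb2, Epb41l4a and 2210010C04Rik. Epb41l4a was dim in the knockout line, at 73.6 in knockouts and 79.9 in controls. Pth1r came closest in size, with 483 in overexpressors against 203 in controls (log2 difference 1.10) and 126 in knockouts against 179 in controls (-0.41, limma adjusted p = 1). The effect of overexpression on Hsd11b1 exceeded that of knockout by 2.15 on the log2 scale (SE 0.35, 95% interval 1.38 to 2.91), which is given as a description because the overexpressor values chose the gene.

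**Figure D1:**
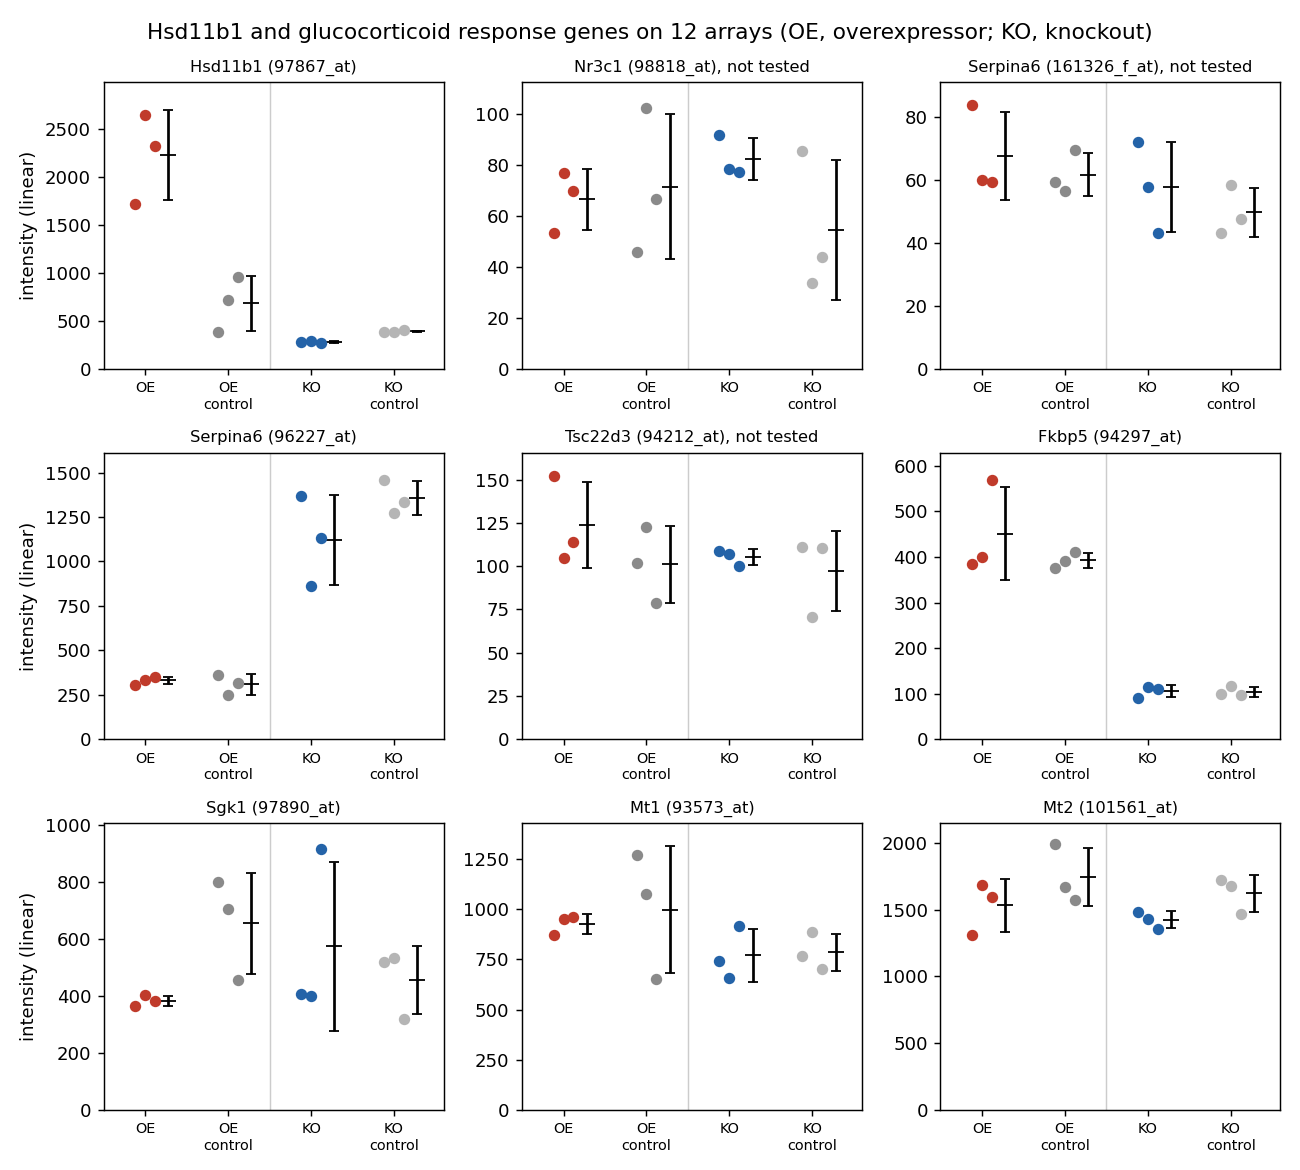
Intensity (linear scale) of the 9 probe sets on each of the 12 arrays, with 1 panel per probe set. Coloured points are mutants, grey points their controls, and black bars are mean ± SD of 3 arrays; the vertical line parts the overexpressor line from the knockout line. The 3 overexpressors sit between 1718 and 2646 for Hsd11b1, above their controls, and the 3 knockouts between 270.3 and 293, below theirs.

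The region around the annotated start of Hsd11b1 is shown because this gene carries the largest difference among the members. It was read from RefSeq on GRCm38.p6 and covers 250 bases before to 50 after the start, 5′ to 3′, with the CCAAT box in capitals, the letters from which the C/EBP activators of this gene take their name.
Hsd11b1, chr1:193242311-193242610, minus strand: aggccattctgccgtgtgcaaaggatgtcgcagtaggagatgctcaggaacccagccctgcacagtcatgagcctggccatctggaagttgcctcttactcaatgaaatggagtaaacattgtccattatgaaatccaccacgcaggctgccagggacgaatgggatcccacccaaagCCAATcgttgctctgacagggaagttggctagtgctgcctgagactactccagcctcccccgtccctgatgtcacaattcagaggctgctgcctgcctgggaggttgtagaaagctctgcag
The box begins 72 bases before the start. CCAAT, read on both strands, occurs in 37.4% of 32851 such windows, so its presence here is a description of the sequence only. The C/EBP core TTGCNNAA, a motif other than CCAAT, had no match in this window and is found in 10.8% of windows. The glucocorticoid motif TGTTCT, found in 19%, had none either.

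On the genome Hsd11b1 lies next to G0s2, whose protein inhibits the lipase that starts triglyceride breakdown. This neighbour ran the other way in both lines. G0s2 read 963 ± 181 in overexpressors and 1719 ± 424 in controls (SD, n = 3 each, log2 difference -0.80, SE 0.22). Its overexpressors all lay below its controls, where 5.51% of all probe sets did. It read 1948 ± 434 in knockouts and 1609 ± 330 in controls (0.26, SE 0.22, limma adjusted p = 1), which overlapped. Lamb3, a laminin gene and the next neighbour on that side, differed by -0.04 and -0.07 in the overexpressor and knockout comparisons. Of the 3 nearest protein-coding genes on each side, chosen after the values of Hsd11b1 were seen, the other 4 had no probe set of their own in the annotation used.

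Supply of cofactor and removal of the hormone set what Hsd11b1 can do. H6pd makes the NADPH that drives the enzyme inside the endoplasmic reticulum. It read 1586, 1551 and 1739.8 in overexpressors, against 1217, 1688 and 1053 in controls, and the groups overlapped through 1 control (log2 difference 0.32, SE 0.17). H6pd read 1133 ± 178 in knockouts and 1205 ± 66.4 in controls (SD, n = 3 each; -0.10, SE 0.17, limma adjusted p = 1). Hsd11b2, which inactivates corticosterone and is best known in kidney, read 684 ± 17.1 in overexpressors and 648 ± 49.7 in controls (0.08). In the knockout line its signal was near the floor, at 51.6 ± 23.9 in knockouts and 42.5 ± 19.4 in controls. Cyp11a1, which starts steroid synthesis in adrenal and ovary, differed by 0.11 in overexpressors and 0.06 in knockouts.

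Neither the carrier nor the receptor stood apart from its controls in either line. Serpina6 is read by 2 probe sets. The brighter read 308, 333 and 351 in overexpressors against 363, 248 and 315 in controls, which overlapped (log2 difference 0.10, SE 0.16). In the knockout line it read 1368, 861 and 1132, against 1459, 1275 and 1333 in controls. The highest knockout lay within the range of the controls, and the difference of -0.29 (SE 0.16, 95% interval -0.65 to 0.07) did not pass limma's test (adjusted p = 1). Without knockout 2, the dimmest of its group, it was -0.12, and without knockout 1, the brightest, -0.44. With array weights it was -0.51. The other probe set ranged from 43.1 to 83.9 and was left out of the test as dim. Liver is the main known source of this protein, and its 3 tested markers, Alb, Apoa1 and Ttr, had median differences of -0.01 in overexpressors and -0.04 in knockouts. Ttr was dim in the overexpressor line, at 52.6 in overexpressors and 50.9 in controls, and passed the filter through the knockout line's arrays. Alb alone stood apart from controls, at -0.52 in overexpressors and 0.13 in knockouts, while Apoa1 and Ttr lay between -0.07 and 0.00 in both. Of all probe sets, 5.51% had every overexpressor below every control and 5.17% every knockout above every control. The part of these liver markers in the Serpina6 signal was not tested.

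Nr3c1 was dim in all 4 groups. It read 53.2, 76.7 and 69.6 in overexpressors, against 45.7, 102 and 66.6 in controls, and 91.8, 78.3 and 77.1 in knockouts, against 85.6, 33.7 and 43.8 in controls. Its mean over 12 arrays, 68.7, fell under the limit of 157 that left out the dimmest 40% of probe sets, so it was not among those tested. Both pairs of groups overlapped. With no filter the knockout difference was 0.43 (95% interval -0.07 to 0.93, limma adjusted p = 1).

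Among the receptor's induced targets, Tsc22d3 and Fkbp5 overlapped their controls in both lines. Tsc22d3, the leucine zipper protein GILZ, read 152, 105 and 114 in overexpressors against 102, 123 and 78.5 in controls. It read 109, 107 and 100.1 in knockouts against 111, 70.7 and 110.3 in controls. Both pairs overlapped, and the probe set was too dim for the main test. With no filter the differences were 0.22 (95% interval -0.14 to 0.58) in overexpressors and 0.10 (-0.26 to 0.46, limma adjusted p = 1) in knockouts.

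Fkbp5, a co-chaperone that lowers the receptor's affinity for hormone, read 384, 400.4 and 569 in overexpressors, against 376, 391 and 410.1 in controls. Only overexpressor 3 stood above the controls, and the difference of 0.17 (SE 0.14) was -0.00027 without that array. Fkbp5 read 105 ± 13.5 in knockouts and 104 ± 10.8 in controls (SD, n = 3 each; 0.01, 95% interval -0.28 to 0.31, limma adjusted p = 1). Those levels are below the limit of 157, so the probe set passed the filter through the overexpressor line's arrays.

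Sgk1, a kinase that acts on ion channels and transporters, ran against Hsd11b1 in the overexpressors. It read 364, 401 and 380.1 in overexpressors, against 800.3, 703 and 457 in controls. All overexpressors lay below all controls, while control 3 stood far under the other two. The means were 382 ± 18.5 in overexpressors and 653 ± 177 in controls (SD, n = 3 each; log2 difference -0.69, SE 0.29, 95% interval -1.32 to -0.05).

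In the knockout line Sgk1 was carried by 1 array. It read 407, 398 and 916 in knockouts, against 517, 531 and 318 in controls. The difference was 0.24 (SE 0.29, 95% interval -0.40 to 0.88, limma adjusted p = 1) with all arrays and -0.13 without knockout 3. That array was also the highest of its group for Per1 (285, next 165), Dusp1 (1348, next 883), Cebpd (726, next 338) and Mt1 (915, next 743), genes that respond to glucocorticoids among other signals. Over whole lists it was the highest of its group for 23 and the lowest for 5 of 29 glucocorticoid-induced genes of the wider list described further on. Among the 9 member probe sets it was the highest for 2, Sgk1 and Mt1, and the lowest for 5, Tsc22d3 (100.1) and Mt2 (1359) among them. Of 9 genes that respond to handling, it was the highest for 5 (Fos, Jun, Egr1, Zfp36 and Nr4a1) and the lowest for 2 (Junb and Fosb). The part of handling in its levels was not tested. Its macrophage sum was the highest of its group, at 4159 against 2842 and 3167, and the part of those cells in its Sgk1 level was not tested.

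Of 6 start windows of Sgk1 in RefSeq, 1 holds the full glucocorticoid response palindrome, AGAACA and TGTTCT with 3 bases of any kind between them. That window is shown for this reason, with the palindrome in capitals.
Sgk1, chr10:21993640-21993939, plus strand: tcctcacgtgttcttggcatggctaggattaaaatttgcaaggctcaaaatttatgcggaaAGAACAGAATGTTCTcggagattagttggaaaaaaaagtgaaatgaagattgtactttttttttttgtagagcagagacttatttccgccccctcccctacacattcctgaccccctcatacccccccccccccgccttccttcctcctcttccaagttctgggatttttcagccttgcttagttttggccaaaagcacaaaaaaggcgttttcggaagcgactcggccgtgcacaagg
The palindrome begins 189 bases before that start. It was found in 3 of 32851 windows (0.00913%), on either strand. The shorter TGTTCT matched this window at 3 positions, 2 of them inside the palindrome. Among the 13 start windows searched for Hsd11b1, Tsc22d3, Fkbp5, Sgk1, Mt1 and Mt2, no other held the palindrome, which says nothing about sites outside these windows.

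The metallothioneins Mt1 and Mt2, small proteins that bind zinc and copper, were bright in every group and differed little. Mt1 read 871, 951 and 962 in overexpressors against 1269.7, 1075 and 651 in controls. The controls spanned the overexpressors on both sides, so the difference of -0.05 (SE 0.21) had no stable sign, being 0.14 without control 1 and -0.32 without control 3. Mt1 read 743, 655 and 915 in knockouts and 767, 887 and 704 in controls (-0.03, 95% interval -0.48 to 0.41, limma adjusted p = 1). That sign was not stable either, being 0.07 without knockout 2.

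Mt2 read 1312, 1689 and 1597 in overexpressors, against 1993, 1673 and 1572 in controls. It read 1484, 1432 and 1359 in knockouts, against 1725, 1681 and 1465 in controls. The mutants lay lower on average in both lines, with overlap in each. The differences were -0.18 (SE 0.13) in overexpressors and -0.18 (SE 0.13, 95% interval -0.46 to 0.10, limma adjusted p = 1) in knockouts. The overexpressor value was -0.08 without overexpressor 1, -0.09 without overexpressor control 1 and -0.06 with array weights. Mt3 and Mt4, which lie beside them on the chromosome, differed by -0.08 and 0.14 in overexpressors and by -0.10 and 0.03 in knockouts, and Mtf1, the zinc sensor that drives these genes, by 0.03 and -0.12.

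The start regions of Mt1 and Mt2 are shown because this pair is known to be driven by zinc through elements near the start. Capitals mark metal response elements, searched as TGCACNC or TGCGCNC on both strands.
Mt1, chr8:94178839-94179138, plus strand: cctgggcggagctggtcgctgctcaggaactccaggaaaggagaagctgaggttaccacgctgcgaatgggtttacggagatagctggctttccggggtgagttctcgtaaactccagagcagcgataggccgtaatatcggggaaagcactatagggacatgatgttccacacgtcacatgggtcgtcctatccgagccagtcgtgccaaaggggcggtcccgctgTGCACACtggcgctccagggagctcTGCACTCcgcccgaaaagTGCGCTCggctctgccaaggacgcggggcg
Mt2, chr8:94172368-94172667, plus strand: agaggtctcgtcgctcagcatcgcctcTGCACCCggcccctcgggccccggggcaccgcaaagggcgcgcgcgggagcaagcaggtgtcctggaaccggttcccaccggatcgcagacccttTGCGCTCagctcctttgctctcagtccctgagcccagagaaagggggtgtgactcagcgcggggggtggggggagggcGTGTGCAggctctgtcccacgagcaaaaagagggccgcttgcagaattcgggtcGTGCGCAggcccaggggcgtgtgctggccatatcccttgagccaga
Mt1 holds 3 matches and Mt2 holds 4, and 25.7% of all windows hold at least 1. Neither window holds TGTTCT.

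**Figure D2:**
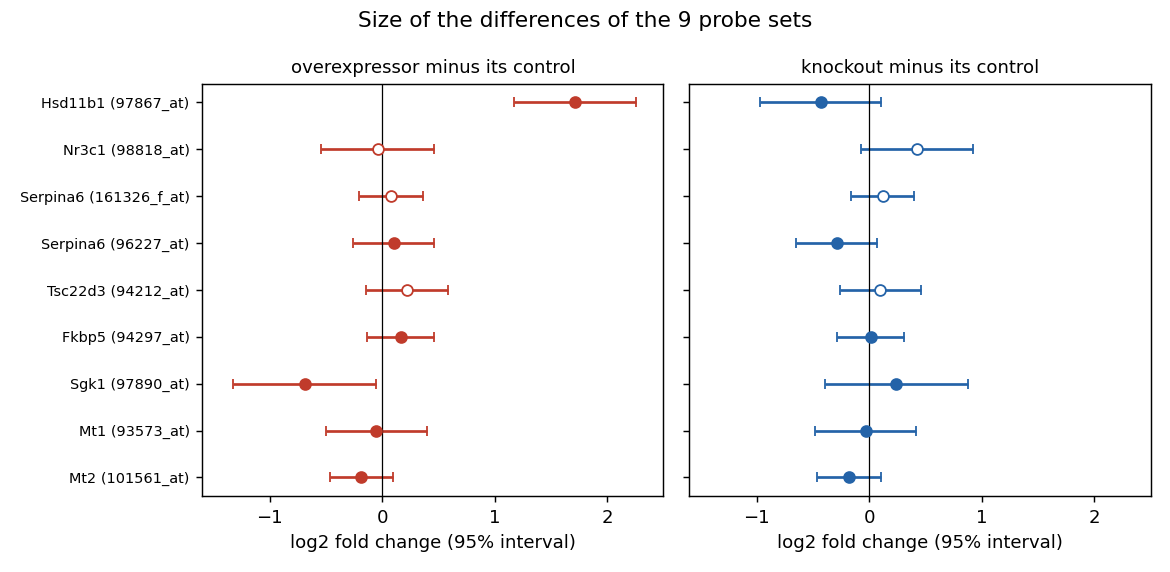
Log2 fold change of the 9 probe sets, mutant minus its own control, with 95% intervals from limma, for the overexpressors (left) and the knockouts (right). Filled points come from the fit of 7454 probe sets and open points, for the 3 dim probe sets, from the fit with no filter. The interval of Hsd11b1 in overexpressors runs from 1.17 to 2.25, and in knockouts every interval includes 0.

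Of the 9 probe sets, 6 passed the filter and 3 were too dim (Nr3c1, Tsc22d3 and 1 of Serpina6). Among the 6, 3 were higher and 3 lower in overexpressors, with a median log2 difference of 0.02, where the median of all 7454 tested probe sets was -0.07. Overexpressor 1 was the lowest of its group for 7 of the 9 and the highest for 2. At a limma adjusted p under 0.05 the overexpressor comparison called 1 of the 6, Hsd11b1, where 0.0805% of all tested probe sets were called. Nothing is read from that count, since that comparison chose the gene. Groups did not overlap for 2 of the 9, Hsd11b1 (higher) and Sgk1 (lower), where 8.05% of all probe sets did not overlap, 2.54% higher and 5.51% lower. In the knockout comparison 2 of the 6 were higher and 4 lower (median -0.11, all tested 0.04). By limma 0 were called, where 0.121% of all tested probe sets were, and 0 had an unadjusted p under 0.05, where 3.98% did. Of the 2 higher, Fkbp5 (0.01) was dim in this line and passed the filter through the overexpressor line's arrays. Sgk1 (0.24), the other, was -0.13 without knockout 3. Groups did not overlap for 1 of the 9, Hsd11b1 (lower), where 7.5% of all probe sets did not, 5.17% higher and 2.33% lower.

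A wider list of the glucocorticoid pathway held 67 other genes in 5 roles, of which 53 had a probe set of their own and 45 were bright enough to test. In overexpressors 13 of the 45 were higher and 32 lower (median -0.11, all tested -0.07), and 1 was called, lower. At an unadjusted limma p under 0.05, 6 were lower and 0 higher, where 4.76% of all tested probe sets passed. In knockouts 28 were higher and 17 lower (median 0.08, all tested 0.04), and 0 were called by limma. At an unadjusted limma p under 0.05, 2 passed, where 3.98% of all tested probe sets did. The knockout median was -0.01 without knockout 3 or without knockout control 3 and 0.20 without knockout 1. The overexpressor median lay between -0.17 and -0.0001 over the alternatives, nearest 0 without overexpressor 1. Rgs2, among the 6 lower at an unadjusted limma p under 0.05, was dim in the overexpressor line. Without it 13 were higher and 31 lower in overexpressors (median -0.10). Hsd11b2 and Stip1 were dim in the knockout line, and without them 26 were higher and 17 lower in knockouts (median 0.07). The list was drawn up with earlier results of these arrays known.

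Genes that glucocorticoids induce made up the largest role, with 27 tested. In overexpressors 8 were higher and 19 lower (median -0.19). Of the 29 on the array, overexpressor 1 was the lowest of its group for 22 and the highest for 2. Its median over all probe sets was 188.1, against 210.4 and 210.5 in the other overexpressors. The called gene was Pck1, the phosphoenolpyruvate carboxykinase, which read 1001, 1400.3 and 1365 in overexpressors against 2478, 3886 and 3514 in controls (log2 difference -1.36, SE 0.17, limma adjusted p = 0.0079). Glucocorticoids are known to induce this gene in liver and to repress it in fat, so the list's name does not describe it in this tissue. Without it 8 were higher and 18 lower (median -0.18), and none was called by limma. Its call ended without overexpressor control 2.

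Of the induced genes other than Pck1, 3 had all overexpressors below all controls, where 5.51% of all probe sets did. Per1, a clock gene with a strong response to the hormone, read 160 ± 11.4 in overexpressors and 239 ± 34.9 in controls (-0.48). Dusp1, a phosphatase that shuts off MAP kinases, read 738 ± 60.6 in overexpressors and 979 ± 84.8 in controls (-0.39). Errfi1, an inhibitor of the EGF receptor, differed by -0.42. None of these 3 passed over all probe sets. The others with a difference of 0.3 or more below controls were Rgs2 (-0.72), Zbtb16 (-0.50), Ddit4 (-0.41), Klf9 (-0.32), Glul (-0.31) and Nfkbia (-0.30). Cdkn1c, a cell cycle inhibitor, at 0.36 and Lpin1 at 0.30 were the 2 that far above controls, with overlapping groups. With array weights Lpin1 was called higher (0.82). Rgs2 was dim in this line, at 97.4 in overexpressors and 174 in controls, and passed the filter through the knockout line's arrays.

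In knockouts 16 of the 27 induced genes were higher and 11 lower (median 0.10). Orm1, an acute phase protein, read 1044, 1351 and 1593 in knockouts, against 830.5, 656 and 767 in controls. The groups did not overlap, and the difference of 0.78 (SE 0.24, 95% interval 0.25 to 1.31) did not pass limma's test over all probe sets (adjusted p = 1). Agt, the angiotensinogen gene, stood apart the other way, at 445 in knockouts against 581 in controls (-0.37, adjusted p = 1), as did the dim Il1r2, at 87.4 against 102. That makes 1 of 29 all higher, where 5.17% of all probe sets were, and 2 all lower, where 2.33% were. Txnip, which binds thioredoxin and restrains glucose uptake, read 1735, 1742 and 3003 in knockouts against 2648, 2957 and 3122 in controls (-0.47, SE 0.21, adjusted p = 1). Knockout 3 again stood apart from the other two knockouts. Lpin1, a phosphatidate phosphatase, differed by 0.52 (SE 0.29, adjusted p = 1), with overlapping groups.

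The regulators of the Hsd11b1 gene on this list include known activators and Nr1h3, known to lower it, so the list has no single direction to read. All 5 tested were lower in overexpressors (median -0.32), and 0 were called by limma. Overexpressor 1 was the lowest of its group for all 6 regulators on the array. At an unadjusted limma p under 0.05, 2 passed, where 4.76% of all tested probe sets did. Cebpd, an early C/EBP factor of adipocyte differentiation, read 213, 307 and 223 in overexpressors against 700.1, 491 and 375 in controls (-0.95, SE 0.35). Nr1h3, the liver X receptor LXRalpha, which is known to lower Hsd11b1, read 239.5, 363 and 361 in overexpressors against 501, 545 and 480.5 in controls (-0.63, SE 0.21). For both genes all overexpressors lay below all controls, where 5.51% of all probe sets did. Cebpa, a known activator of Hsd11b1, differed by -0.09, Cebpb by -0.32 and Pparg by -0.07. In knockouts 4 of the 5 were higher, with Nr1h3 at 0.42 (SE 0.21), Pparg at 0.32 and Cebpa at 0.20 (limma adjusted p = 1 for each). Pparg read above all controls in the 3 knockouts, at 722 ± 107 against 572 ± 72.8, where 5.17% of all probe sets did. The part of these regulators in the Hsd11b1 differences was not tested.

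The receptor's partners were close to their controls in both lines. The 6 tested were all lower in overexpressors (median -0.07) and 5 were higher in knockouts (median 0.13), with 0 called by limma in either and 0 with an unadjusted p under 0.05. Stip1 was dim in the knockout line, at 91.4 in knockouts and 83.8 in controls, and passed the filter through the overexpressor line's arrays; without it 4 of 5 were higher in knockouts. The chaperone Hsp90aa1 differed by -0.07 in overexpressors and 0.19 in knockouts, the immunophilin Fkbp4 by -0.05 and 0.21, the co-chaperones Bag1 by -0.13 and 0.13 and Stip1 by -0.02 and 0.12, and the coactivator Ncoa1 by -0.21 and 0.01. The mineralocorticoid receptor gene Nr3c2 is not analysed here.

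**Figure D3:**
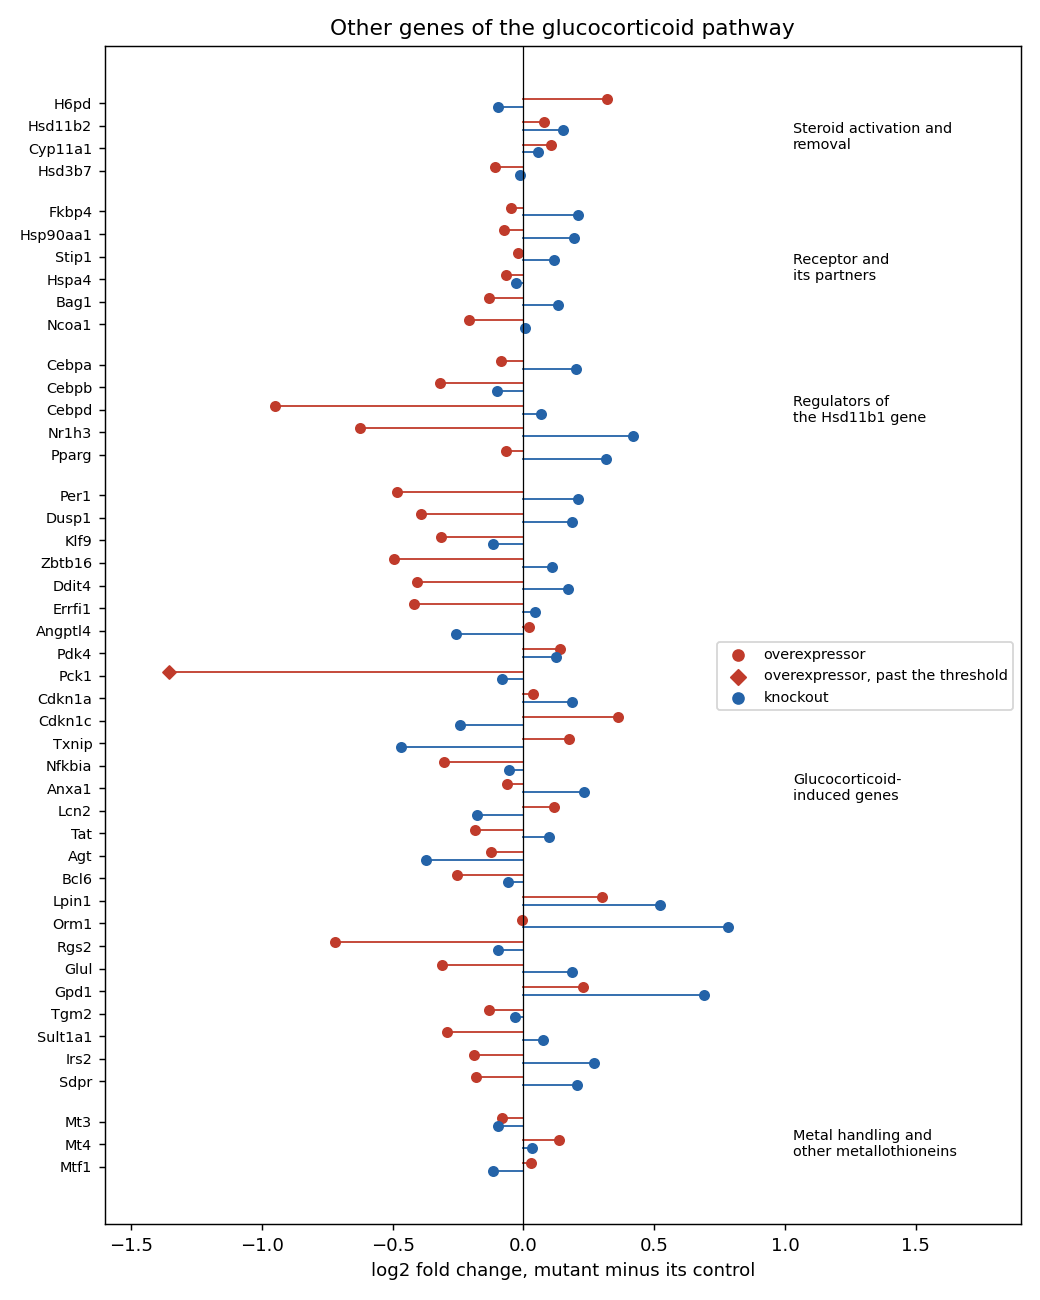
Log2 fold change, mutant minus its own control, of the 45 tested genes of the wider pathway list, by role. Red marks are overexpressors and blue marks knockouts; the diamond is the gene called at a limma adjusted p under 0.05. Pck1 (-1.36) lies farthest to the left, and Cebpd (-0.95) and Rgs2 (-0.72) follow it.

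Hsd11b1 is expressed in adipocytes, their precursors and macrophages, so marker lists of these cells are given beside it. The 5 adipocyte markers on the array were 2 higher and 3 lower in overexpressors, with summed intensities of 16763 to 21624 in overexpressors and 18904 to 21403 in controls. All 8 fibroblast and precursor markers were lower in overexpressors (median -0.42), with sums of 15195 to 18871 in overexpressors and 17960 to 25885 in controls. All 6 tested macrophage markers were lower too (median -0.30), with sums of 3484 to 3833 in overexpressors and 3153 to 6609 in controls. At an unadjusted limma p under 0.05, where 4.76% of all tested probe sets passed, 6 of the 8 precursor markers were lower in overexpressors. So was the adipocyte marker Cidec, a lipid droplet protein, with all overexpressors below all controls (-0.77), where 5.51% of all probe sets were. None of these markers was called by limma over all probe sets, and of the 3 lists only Itgam, a macrophage marker, was too dim to test. The higher Hsd11b1 signal stood beside lower precursor and macrophage markers, and the part of these cells in it was not tested.

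Hsd11b1 and the stromal sums were ordered in opposite ways within the overexpressor controls, and in full only there among the 4 groups. Control 1 had the lowest Hsd11b1 (385) with the highest macrophage sum (6609) and precursor sum (25885), and control 3 the highest Hsd11b1 (957) with the lowest sums (3153 and 17960). Overexpressor 1 had the lowest Hsd11b1 of its group (1718) with the lowest precursor sum (15195). Knockout control 2 had the lowest Hsd11b1 of its group (387) with the lowest sums (2683 and 17229). Knockout 3 had the lowest (270.3) with the highest sums, but knockout 2, the highest (293), had sums between the others. Any link between these levels was not tested. In the knockout line the macrophage sums were 2842 to 4159 in knockouts and 2683 to 4006 in controls, and the precursor sums 14771 to 20068 in knockouts and 17229 to 21747 in controls. Both overlapped.

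Sgk1, Per1 and Dusp1 also respond to stress of handling. Of 9 such genes, 8 were lower in overexpressors (median -0.16), with sums of 4168 to 4769 in overexpressors and 4394 to 6307 in controls. Overexpressor control 1 was the highest, with Fos at 577 and Egr1 at 866, and it was the highest of its group for 8 of the 9. It also had the highest Sgk1 (800.3), Dusp1 (1076) and Cebpd (700.1) of its group, but the lowest Per1 (202). Of the 29 induced genes it was the highest for 7 and the lowest for 10. The part of handling in these differences was not tested.

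**Figure D4:**
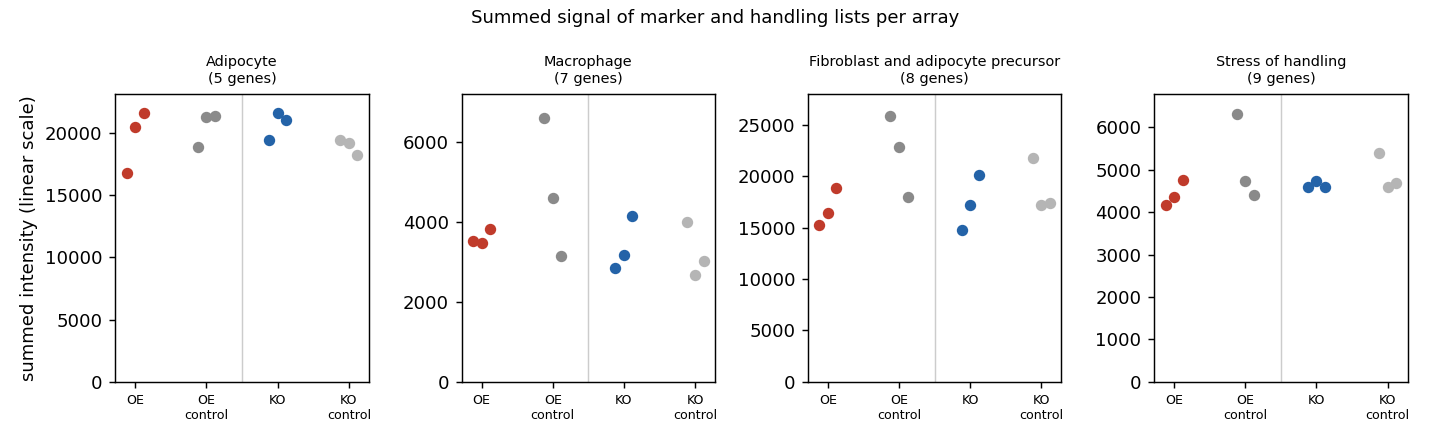
Summed intensity (linear scale) per array of the markers of adipocytes, macrophages and fibroblasts with adipocyte precursors, and of 9 genes that respond to handling. Each point is 1 array; OE is overexpressor, KO is knockout. The macrophage sum of the overexpressors lies between 3484 and 3833, inside the range of their controls, 3153 to 6609.

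The genes whose pattern was most like that of Hsd11b1 were found by Pearson's r over the 12 arrays, each line centred on its own mean, as a description. The 5 highest were Slc11a2, an iron transporter (r = 0.95), Il13, a cytokine gene (0.92), Slc19a1, a folate carrier (0.90), Bmyc, of the Myc family (0.89), and Pth1r (0.89). All 5 had every overexpressor above every control, where 2.54% of all probe sets did, and all but Pth1r overlapped in the knockout line. Ranking by this r favours genes, at either end, whose overexpressors part from their controls. Nothing is therefore read from that separation. With each group centred on its own mean, which removes the group difference, r was 0.84 for Slc11a2, 0.93 for Il13, 0.65 for Slc19a1, 0.73 for Bmyc and 0.49 for Pth1r.

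The 5 lowest were Gab1, a docking protein of growth factor receptors (r = -0.88), Nnmt, which methylates nicotinamide (-0.86), Tgfbi, a matrix protein (-0.86), Wdr81 (-0.85) and Lamc1, a laminin chain (-0.85). Nnmt was the 1 among them that was apart in both lines, with 311 in overexpressors against 856 in controls and 1161 in knockouts against 768 in controls (means; log2 differences -1.37 and 0.57, limma adjusted p = 0.382 in knockouts). This reverse pattern, lower in overexpressors and higher in knockouts with no overlap in either, was found in 40 of 7454 tested probe sets (0.537%). With the group difference removed the r of Nnmt was 0.16, while that of Tgfbi stayed at -0.86. For Mt1 the highest were Cmtm6 (0.93), Wdtc1 (0.92) and Gtf2i (0.92), and for Tsc22d3 Slc12a5 (0.93), Fam111a (0.90) and Tmpo (0.89). These arrays share a table and a few tissue samples, and no test was made of these values.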

How the data were processed

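Total RNA of perigonadal fat was labelled with biotin and hybridised to Affymetrix arrays, per the labels' protocols. The authors deposited a linear intensity for each probe set on each array, and how it was summarised or scaled is not given in the sources used here. On each array 4.84% to 5.29% of values sat at a floor, which differed between the lines.

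Deposited intensities were taken to log2 after adding 36.92, their 10th percentile, which makes differences of dim probe sets look smaller. The dimmest 4968 of 12422 probe sets, by mean, were dropped. A model with 4 group means was fitted over the 12 arrays in limma 3.58.1 (R 4.3.3, eBayes with trend, 8 residual and 4.27 prior degrees of freedom), with p-values adjusted by Benjamini-Hochberg over 7454 probe sets. The fit was tested on simulated data. An exact test of 3 against 3 cannot go below p = 0.1, and the number of arrays limits precision.

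Probe sets were named through the platform annotation (1 symbol for 10833, several for 396, none for 1193), with symbols updated by gene ID for 10817. For list genes, the brightest probe set stood for the gene. Members and lists were chosen with earlier results of these data known. Named genes were all members, fixed genes (Adipoq, Lep, Fabp4, H6pd, Hsd11b2, Nr3c2), called pathway genes, the 3 smallest p per role and comparison, and the genes most like Hsd11b1, Mt1 and Tsc22d3; others named in the text were chosen after their values were seen. Start windows came from RefSeq (GRCm38.p6). Alternatives changed the constant, filter, normalization, weights, arrays and replicate block. Figures used matplotlib 3.10.9 in Python 3.11.15.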

Additional observations from a re-analysis of the deposited data

How the results depend on the processing

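The limma counts moved with the setting. In the overexpressor comparison 6 of 7454 probe sets were called, 2 higher and 4 lower, 11 (6 higher and 5 lower) with quantile normalization or with array medians subtracted, 1 on the line's own 6 arrays, 419 with array weights, whose iteration did not converge, and 3 to 21 with single arrays left out (3 without overexpressor control 2, 21 without overexpressor control 3). In the knockout comparison 9 were called, 14 with array weights, 0 with the replicate block (242 at an unadjusted p under 0.05) and 6 to 11 with single arrays left out (6 without knockout 2, knockout 3 or knockout control 3). Of the members, 1 was called in overexpressors, 0 without a filter on dim probe sets or on the line's own 6 arrays, 2 with array weights (Sgk1 joined, at -0.75) and 0 to 1 with single arrays left out (0 without overexpressor 2, overexpressor 3 or overexpressor control 2). In knockouts 0 members were called under all 21 alternatives. Of the pathway genes, 1 was called, 0 on the line's own 6 arrays, 5 with array weights (Cebpd, Nr1h3, Per1, Pck1 and Lpin1) and 0 to 1 with single arrays left out. The causes were not tested.

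Of 250 single member values, 228 kept direction and side of the threshold. Signs turned for Fkbp5 in knockouts (-0.011 with quantile normalization, -0.022 with medians subtracted, -0.034 to 0.096 with single arrays left out, below 0 without knockout 2, knockout 3, knockout control 1 or 3), Sgk1 in knockouts (-0.18 with array weights, -0.13 to 0.43 with single arrays left out, below 0 without knockout 3), Mt1 in knockouts (-0.16 to 0.073 with single arrays left out, above 0 without knockout 2 or knockout control 2), Mt1 in overexpressors (0.064 with quantile normalization, 0.0053 with medians subtracted, -0.32 to 0.14 with single arrays left out, above 0 without overexpressor control 1 or 2), Serpina6 in overexpressors (-0.030 to 0.21 with single arrays left out, below 0 without overexpressor control 2) and Fkbp5 in overexpressors (-0.00027 to 0.26 with single arrays left out, below 0 without overexpressor 3). Hsd11b1 stayed between 1.37 and 1.99 in overexpressors and between -0.49 and -0.38 in knockouts.

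Same-numbered arrays did not deviate together (correlation -0.09 to 0.02 in the overexpressor line and -0.35 to -0.04 in the knockout line). Differently numbered pairs ran from -0.20 to 0.41. With 3 same-numbered pairs per line, these values cannot show whether such samples share more than a number. With the replicate block 5 probe sets were called in overexpressors, 1 of them a member.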

Other observations

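The circadian clock bears on glucocorticoid targets, because the hormone is secreted with a daily rhythm and Per1 and Tsc22d3 follow it. Of 11 clock genes on the array 9 were tested, with 3 higher and 6 lower in overexpressors (median -0.04) and 7 higher and 2 lower in knockouts (median 0.05). Per2, among the 7 higher in knockouts (0.01), was dim in that line, at 51.3 in knockouts and 50.35 in controls. It passed the filter through the overexpressor line's arrays. Arntl, among the 6 lower in overexpressors (-0.11), lay near the filter's limit in that line, at 145 in overexpressors and 162 in controls. No clock gene was called by limma in either comparison. An unadjusted limma p under 0.05 was seen in 4.76% of all tested probe sets in overexpressors and 3.98% in knockouts. It was seen in 1 clock gene in each. Those were Tef, an output gene of the clock, at -0.29 in overexpressors (658 against 810.5 in controls), and Clock at 0.31 in knockouts (546 against 434 in controls). The labels give no time of day for any mouse.

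Smooth muscle markers were lower in both mutants, in 4 of 4 genes each (median -0.45 in overexpressors and -0.35 in knockouts), and none was called by limma. Their sums overlapped in both lines, at 6304 to 6732 in overexpressors against 6218 to 10929 in controls. In the knockout line they were 7865 to 9715 in knockouts against 9201 to 12923 in controls. Only Tagln stood apart, lower in knockouts, where 2.33% of all probe sets did. Myh11 and Tagln had an unadjusted limma p under 0.05 in overexpressors, where 4.76% of all tested probe sets did. Ovary and steroid-making cells had Star and Hsd3b1 too dim to test, and the other 5 markers differed by a median of 0.01 in overexpressors and -0.04 in knockouts. Of these, Inhba was under the limit of 157 in the overexpressor line, at 139 in overexpressors and 131 in controls. It passed the filter through the knockout line's arrays. Mammary and mesothelial lists had medians of -0.06 and -0.24 in overexpressors and 0.09 and -0.13 in knockouts. The mammary marker Csn2 was under that limit in the knockout line, at 146 in knockouts and 139 in controls. Wap (161 and 133) and the mesothelial marker Krt8 (134 and 157) lay near it there.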
